A study of Mus musculus with 8 samples.

Results

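The subject here is 10 mouse genes that code for the kinases and scaffold proteins lying between injury and c-Jun, from the MAP kinase kinase kinase DLK down to the c-Jun N-terminal kinases (JNK). They were taken by name from a deposited table of 21761 genes: Map3k12, Map3k13, Map2k4, Map2k7, Mapk8, Mapk9, Mapk10, Mapk8ip1, Mapk8ip2 and Mapk8ip3. All 10 were in the table and all 10 passed the filter on low counts, so none was lost. Ribosome-associated RNA was obtained by translating ribosome affinity purification (TRAP) from midbrain dopaminergic neurons of C57BL/6 mice. The MPTP group (4 libraries) came from mice that received MPTP-HCl into the peritoneum once a day on 5 days, at 30 mg/kg counted as free base. The saline group (4 libraries) came from mice injected with saline on the same schedule, and both groups were collected 4 days after the last injection. MPTP is a neurotoxin whose metabolite enters dopaminergic neurons and inhibits mitochondrial complex I. The promoter that drove the ribosome tag is not given in the sources used here, nor is it said whether each library came from 1 animal or from pooled animals. The protocol covers nigral and tegmental neurons, combined or separate, without saying which applies here.

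The cascade works in tiers. DLK and its close relative LZK are activated by axon damage and phosphorylate the MAP kinase kinases MKK4 and MKK7, which phosphorylate the JNKs. Active JNK phosphorylates c-Jun and other targets, and the JNK-interacting proteins (JIPs) hold kinases of several tiers together and tie them to axonal motors. In mice, neurons that lack DLK respond poorly to axon injury, and loss of JNK2 and of JNK3 is known to spare dopaminergic neurons from MPTP. Activity in this cascade is carried by phosphorylation, which RNA counts do not measure.

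Library totals were 66450856 to 78892061 counts in MPTP and 54192354 to 69333470 counts in saline. A member held between 2001 and 45990 counts in a library. The dopaminergic markers (11 of 14 with a log2 fold change below 0) summed to 9077 to 10749 CPM (counts scaled to library size) in MPTP. In saline they summed to 8125 to 13549 CPM, lowest in saline 3. Th was at 1992.5 to 2708 CPM in MPTP, with a mean of 2255 CPM. In saline Th was at 1847 CPM in saline 3 and at 2744 to 3023 CPM in the other saline libraries. The mean of Th over all saline libraries was 2651 CPM. Saline 3 stood apart. It had the lowest dopaminergic marker score of the 8 libraries (7.45, a mean of log2 CPM) and the highest score of astrocyte, oligodendrocyte, microglia and endothelial markers (3.29). That non-neuronal score was 2.84 to 3.22 in MPTP and 2.33 to 2.64 in saline 1, 2 and 4. Saline 3 was also the highest library for markers of other neurons. GABAergic markers summed to 597 CPM in saline 3 and at most 501 CPM in an MPTP library. Glutamatergic markers summed to 109 CPM in saline 3 and at most 96.9 CPM in an MPTP library. Astrocyte markers (13 of 13 with a log2 fold change above 0) summed to 635 to 709 CPM in MPTP, against 555 to 785 CPM in saline. Oligodendrocyte markers (11 of 12 above 0) summed to 1217 to 1396 CPM in MPTP and 838 to 1778 CPM in saline. Microglia markers (9 of 12 above 0) summed to 35.6 to 44.8 CPM in MPTP and 27.1 to 41.2 CPM in saline, and endothelial markers (4 of 10 above 0) to 11.3 to 19.2 CPM in MPTP and 10.3 to 22.1 CPM in saline. Over all tested genes, 50.1% had a log2 fold change above 0. No marker of the 4 non-neuronal lists was at 0 in all libraries.

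None of the 10 genes passed the test between MPTP and saline, which was edgeR's quasi-likelihood test with a Benjamini-Hochberg adjusted p of 0.05 over the 15999 genes tested. The same test called 0.106% of all tested genes, 0.0750% higher and 0.0313% lower. DESeq2 (0.332% of its tested genes called, 0.156% higher and 0.175% lower) and limma voom (11 genes called higher and 7 lower) also called 0 of the 10. At an unadjusted p under 0.05, edgeR had 2 of the 10, Mapk8 and Mapk9, where 8.78% of all tested genes reached that level, and DESeq2 also had 2, where 9.79% did. Log2 fold changes were above 0 in 2 members and below 0 in 8, with a median of -0.04. Over all tested genes 50.1% were above 0 and the median was 0.00056. The 95% intervals of the 10 log2 fold changes lay between -0.55 and 0.44. The 3 JNK genes Mapk8, Mapk9 and Mapk10 were each lower in every MPTP library than in every saline library, which 2.14% of all tested genes were. No member was higher in every MPTP library than in every saline library (2.04% of all tested genes). In bulk RNA of this kind, fewer cells of a type and less RNA per cell cannot be told apart.

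**Figure D1:**
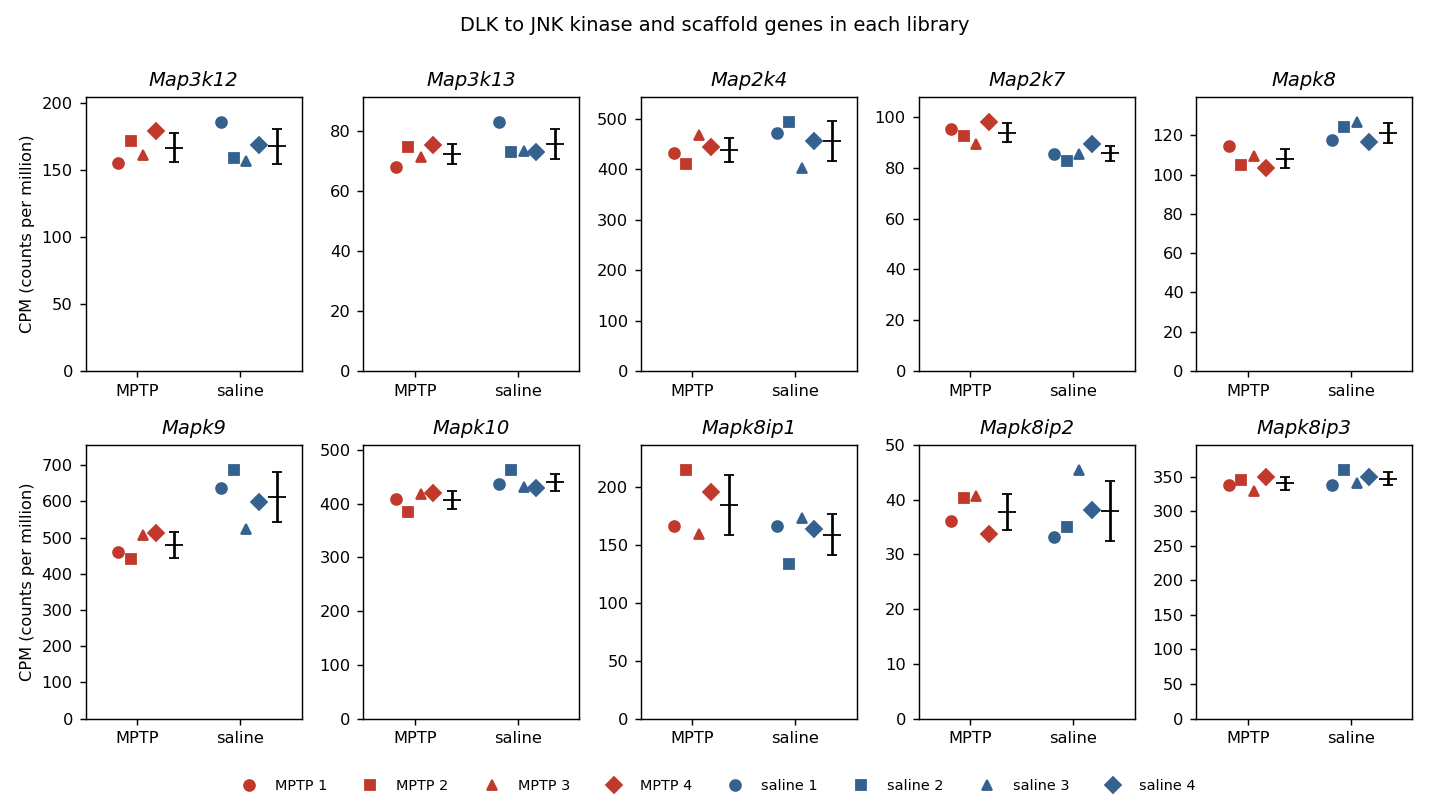
CPM of each of the 10 genes in each library, with MPTP in red on the left and saline in blue on the right; the black marks are the mean and SD of 4 libraries and each axis starts at 0. In the panels of Mapk8, Mapk9 and Mapk10 all MPTP points lie below all saline points, and in the other 7 panels the groups overlap.

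At the top of the cascade neither initiating kinase passed the test. Map3k12 encodes DLK, the dual leucine zipper kinase that starts the injury response. It had 155, 171, 161 and 179 CPM in MPTP libraries 1 to 4, against 185, 159, 157 and 168 CPM in saline libraries 1 to 4. The groups overlapped over most of their range, with the lowest level in MPTP 1 and the highest in saline 1. Its log2 fold change was -0.01 (SE 0.08, adjusted p = 0.988, edgeR), and the 95% interval of the fold was 0.880 to 1.13. Map3k13 encodes LZK, which shares the leucine zippers of DLK. It had 67.9, 74.6, 71.3 and 75.4 CPM in MPTP, against 82.9, 72.8, 73.4 and 72.8 CPM in saline. Saline 1 lay above all other libraries and MPTP 1 below them, the rest overlapped, and the interval of the fold was 0.849 to 1.08 (log2 fold change -0.06, SE 0.08, adjusted p = 0.866, edgeR).

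Map3k12 lies on chromosome 15 of GRCm38 (102497646 to 102517064, minus strand) and Map3k13 on chromosome 16 (21794346 to 21933439, plus strand). In GENCODE vM21, 1573 of the 8989 merged exon bases of Map3k12 lie over exons of Pcbp2, a gene for an RNA-binding protein on the other strand. The library kits named in the labels do not mark strand, so a read there could belong to either gene. The ratio of Map3k12 to Pcbp2 CPM was 0.598 to 0.645 in MPTP and 0.586 to 0.603 in saline. Across the 8 libraries the log2 CPM of both genes had a Pearson r of 0.897, and 39 of 12090 other genes resembled Map3k12 more closely. Pcbp2 itself averaged 269 ± 15.2 CPM in the MPTP libraries, against 281 ± 24.6 CPM in saline (SD of 4 libraries). How many reads the pair share was not tested. Map3k13 shares 281 exon bases with noncoding genes, 3.22% of its merged exons.

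In the next tier both kinases of JNK were present and neither passed. Map2k4 encodes MKK4, which phosphorylates JNK and also p38. It had 432, 410.1, 467 and 443 CPM in MPTP, against 471, 493, 402 and 456 CPM in saline. Saline 3 was the lowest of the 8 libraries and saline 2 the highest, so the groups overlapped (log2 fold change -0.06, SE 0.09, adjusted p = 0.888, edgeR). Map2k7 encodes MKK7, which is specific to JNK. It had 95.4, 92.6, 89.3 and 97.99 CPM in MPTP, against 85.5, 82.5, 85.4 and 89.4 CPM in saline. MPTP 3 lay just below saline 4, and every other MPTP library lay above all saline libraries (log2 fold change 0.13, SE 0.08, adjusted p = 0.649, edgeR). The interval of the Map2k7 fold was 0.978 to 1.23. Map2k4 lies on chromosome 11 (65688243 to 65788297, minus strand) and shares no exon base with another gene. Map2k7 lies on chromosome 8 (4238740 to 4247897, plus strand), and 35.2% of its merged exons are also annotated as exons of a second gene on the same strand.

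Among the cascade genes, only those of the JNK tier separated the groups. Mapk9, the gene of JNK2, had 459.6, 441, 507 and 512 CPM in MPTP, against 636, 688, 523 and 599 CPM in saline. All MPTP libraries lay below all saline libraries, with saline 3 close above MPTP 4. The log2 fold change was -0.35 (SE 0.10, unadjusted p = 0.0020, adjusted p = 0.355, edgeR), a fold of 0.785 with an interval of 0.683 to 0.902. Mapk10, the gene of the neuron-enriched JNK3, had 408, 384, 418 and 419.5 CPM in MPTP, against 437, 464, 431 and 429 CPM in saline. Again no MPTP library reached a saline library, but the gap was narrow and the interval of the fold, 0.827 to 1.04, held 1 (log2 fold change -0.11, SE 0.08, adjusted p = 0.706, edgeR). Mapk8, the gene of JNK1, had 114, 105, 109 and 103 CPM in MPTP, against 117, 124, 127 and 116 CPM in saline. Here saline 3 was the highest library rather than the lowest saline library (log2 fold change -0.17, SE 0.08, adjusted p = 0.558, edgeR). None of the 3 genes shares exon bases with another gene. Mapk8 lies on chromosome 14 (33377898 to 33447158, minus strand), Mapk9 on chromosome 11 (49846751 to 49886421, plus strand) and Mapk10 on chromosome 5 (102907948 to 103211334, minus strand).

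Whether Mapk9 passed depended on saline 3. Without saline 3, edgeR called Mapk9 lower (log2 fold change -0.42, adjusted p = 0.0216) and no other member, where 1.84% of all tested genes were called, 0.853% higher and 0.983% lower. Leaving it out separated the groups for no further member, where 7.61% of all tested genes were then lower without overlap and 7.22% higher. Saline 3 had the highest non-neuronal score (3.29) and the lowest Mapk9 of the saline libraries (523 CPM). Among the MPTP libraries the highest score (MPTP 2, 3.22) went with the lowest Mapk9 (441 CPM). Saline 4 went the other way, with a lower score than saline 1 (2.41 against 2.64) and less Mapk9 (599 against 636 CPM). With that score as a covariate the log2 fold change of Mapk9 was -0.23 (SE 0.08, adjusted p = 0.727, edgeR), with that of Mapk8 at -0.18 and of Mapk10 at -0.08. Every MPTP library had a higher score than saline 1, 2 and 4, so score and group cannot be fully told apart. Why Mapk9 was lower was not tested.

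**Figure D2:**
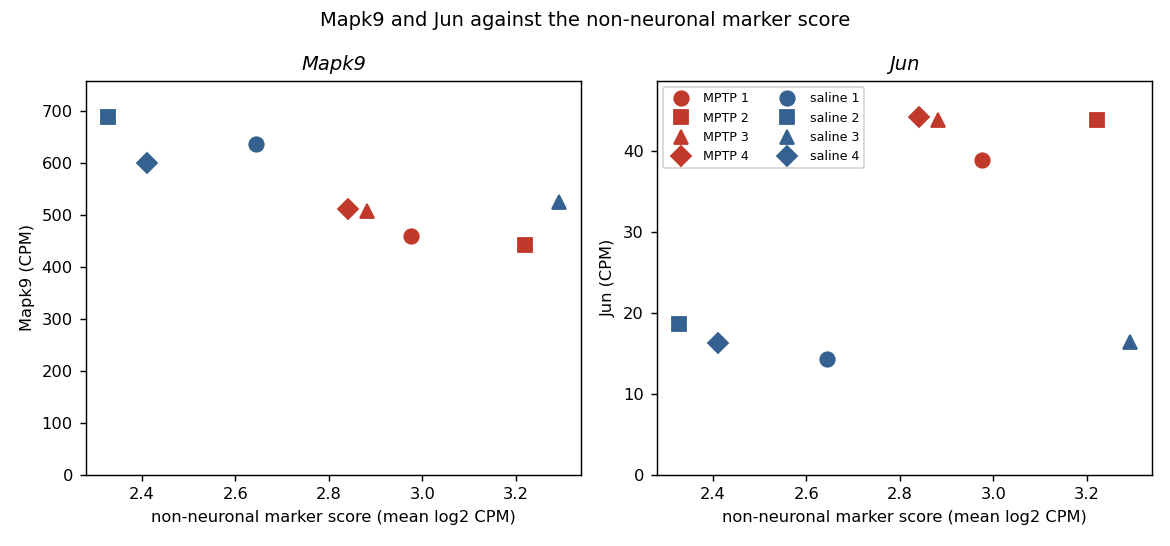
CPM of Mapk9 (left) and of Jun (right) against the non-neuronal marker score, the mean log2 CPM of astrocyte, oligodendrocyte, microglia and endothelial markers, with 1 point per library (MPTP red, saline blue). Saline 3, at a score of 3.29, lies next to the MPTP libraries for Mapk9 (523 CPM) and with the other saline libraries for Jun (16.4 CPM).

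A promoter window of each of the 3 JNK genes is shown because only in these members did the groups not overlap, although none passed the test. Each is a window around a gene start from RefSeq (GRCm38.p6), 5′ to 3′ on the gene's own strand. Capitals mark TGACG on either strand, the core of the cyclic AMP response element TGACGTCA that ATF and c-Jun dimers are known to bind. The windows are chr14:33447109-33447408 (minus strand) for Mapk8, chr11:49846501-49846800 (plus strand) for Mapk9 and chr5:103211285-103211584 (minus strand) for Mapk10.
Mapk8: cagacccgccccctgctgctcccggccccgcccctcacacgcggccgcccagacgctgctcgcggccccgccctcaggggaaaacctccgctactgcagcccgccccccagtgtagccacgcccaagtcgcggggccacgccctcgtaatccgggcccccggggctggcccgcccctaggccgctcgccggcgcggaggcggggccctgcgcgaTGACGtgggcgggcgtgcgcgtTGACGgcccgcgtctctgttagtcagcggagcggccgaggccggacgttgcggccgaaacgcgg
Mapk9: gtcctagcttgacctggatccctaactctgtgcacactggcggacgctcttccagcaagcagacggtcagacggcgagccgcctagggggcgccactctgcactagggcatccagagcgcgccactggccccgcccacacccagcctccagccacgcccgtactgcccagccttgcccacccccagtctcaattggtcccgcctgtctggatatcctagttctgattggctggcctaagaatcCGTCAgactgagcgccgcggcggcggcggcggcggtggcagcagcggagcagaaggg
Mapk10: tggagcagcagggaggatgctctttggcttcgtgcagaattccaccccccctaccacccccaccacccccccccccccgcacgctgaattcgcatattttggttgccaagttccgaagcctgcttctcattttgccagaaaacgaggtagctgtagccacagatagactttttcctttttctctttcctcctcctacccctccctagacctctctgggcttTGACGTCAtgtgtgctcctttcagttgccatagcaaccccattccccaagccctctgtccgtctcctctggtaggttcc

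The Mapk10 window holds the whole element TGACGTCA, 29 bases before the start, which reads the same on both strands and so contains TGACG on each. Mapk8 holds TGACG at 36 and 14 bases before its start, and Mapk9 holds it on the other strand, 7 bases before. RefSeq windows were matched for 9 of the 10 members, 14 windows in all. TGACG is in 6 windows, from Mapk8, Mapk9, Mapk10, Map2k4, Map3k12 and Mapk8ip3, and TGACGTCA is in 1. The levels of Map2k4, Map3k12 and Mapk8ip3 overlapped between the groups. Of all 32851 mouse promoter windows of this length, 20.8% hold TGACG, 1.79% hold TGACGTCA and 5.20% hold the AP-1 element TGACTCA, which none of the 14 windows holds. Mapk8 and Mapk10 each have a second window, at chr14:33410975-33411274 and chr5:103058343-103058642 (both minus strand), and neither holds any of the 3 motifs. A match of letters is a description of the window and not a bound site.

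Of the scaffolds, Mapk8ip1 had the widest spread in MPTP. It encodes JIP1, which binds JNK, MKK7 and kinesin light chains. It had 167, 215, 159.6 and 196 CPM in MPTP, against 166, 134, 173 and 164 CPM in saline. MPTP 2 and 4 lay above all saline libraries while MPTP 1 and 3 lay among them, so the groups overlapped (log2 fold change 0.21, SE 0.11, adjusted p = 0.597, edgeR). The interval of its fold was 0.991 to 1.36, and over the alternatives its log2 fold change ranged from 0.11 (with adjustment for the non-neuronal score) to 0.28. Mapk8ip2 encodes JIP2, a brain relative of JIP1. It had 36.1, 40.3, 40.6 and 33.7 CPM in MPTP, against 33.2, 35.0, 45.5 and 38.1 CPM in saline, with saline 3 the highest library. The sign of its log2 fold change of -0.01 (SE 0.11, adjusted p = 0.989, edgeR) turned under several alternatives. Mapk8ip3 encodes JIP3, which links JNK to kinesin and dynein in axons. It had 337, 345, 329 and 349 CPM in MPTP, against 338, 360.1, 341 and 349 CPM in saline, the least variable of the 10 genes. Its coefficient of variation was 2.72% in MPTP and 2.84% in saline, and its fold had an interval of 0.879 to 1.09 (log2 fold change -0.03, SE 0.07, adjusted p = 0.942, edgeR).

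Mapk8ip1 lies on chromosome 2 (92383676 to 92401263, minus strand), Mapk8ip2 on chromosome 15 (89453913 to 89464468, plus strand) and Mapk8ip3 on chromosome 17 (24892153 to 24936977, minus strand). Of the merged exons of Mapk8ip3, 20.4% lie over exons of the neighbouring genes Eme2, Mrps34 and Nme3. These neighbours averaged 39.2, 43.3 and 55.5 CPM in MPTP and 41.1, 41.9 and 49.9 CPM in saline. How many reads they share with Mapk8ip3 was not tested.

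**Figure D3:**
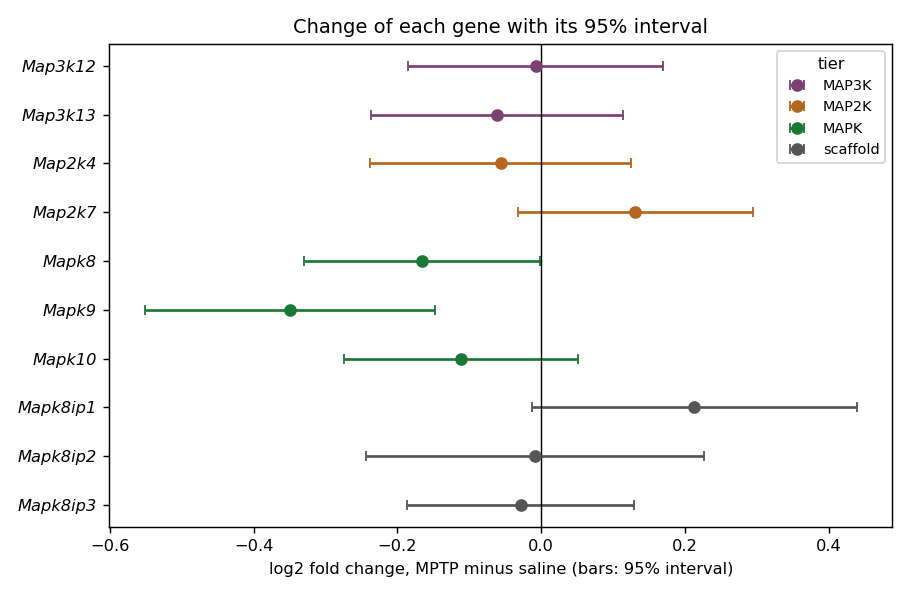
Log2 fold change of each of the 10 genes (MPTP minus saline, edgeR) with its 95% interval, coloured by tier of the cascade. The interval lies wholly below 0 for Mapk8 and Mapk9 and holds 0 for the other 8 genes.

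Levels of different genes were compared as CPM per kilobase of merged exons. By this measure Map2k4 averaged 93.9 ± 5.09 in MPTP, against 97.7 ± 8.33 in saline (SD of 4 libraries here and for the other levels). Mapk9 averaged 70.7 ± 5.17 in MPTP, against 90.1 ± 10.2 in saline. The ranges of Map2k4 and Mapk9 did not overlap in MPTP (87.9 to 100.1 against 65.0 to 75.4) and did in saline (86.1 to 106 against 77.2 to 101). Mapk10 followed at 36.6 ± 1.48 in MPTP and 39.5 ± 1.43 in saline, and Mapk8ip1 at 39.7 ± 5.60 in MPTP and 34.3 ± 3.77 in saline. Their ranges overlapped in MPTP and were apart in saline, with Mapk10 above. Mapk8ip3 (23.4 in MPTP, 23.8 in saline) and Map2k7 (24.5 in MPTP, 22.4 in saline) overlapped in both groups. Of their merged exons, 20.4% (Mapk8ip3) and 35.2% (Map2k7) are shared with other genes.

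Map3k12, at 18.5 ± 1.18 in MPTP and 18.6 ± 1.45 in saline, lay below all of these genes without overlap in either group. Mapk8 (9.44 in MPTP, 10.6 in saline), Map3k13 (8.30 in MPTP, 8.66 in saline) and Mapk8ip2 (6.61 in MPTP, 6.65 in saline) were lowest, and each was clear of the next in both groups. With the length of the longest transcript in place of merged exons, an alternative chosen after seeing the data, Mapk9 ranked above Map2k4 and Map3k12 above Map2k7 in saline. Mapk8ip3 then lay well above Map2k7, at means of 46.7 against 26.6 in MPTP and 47.7 against 24.3 in saline.

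**Figure D4:**
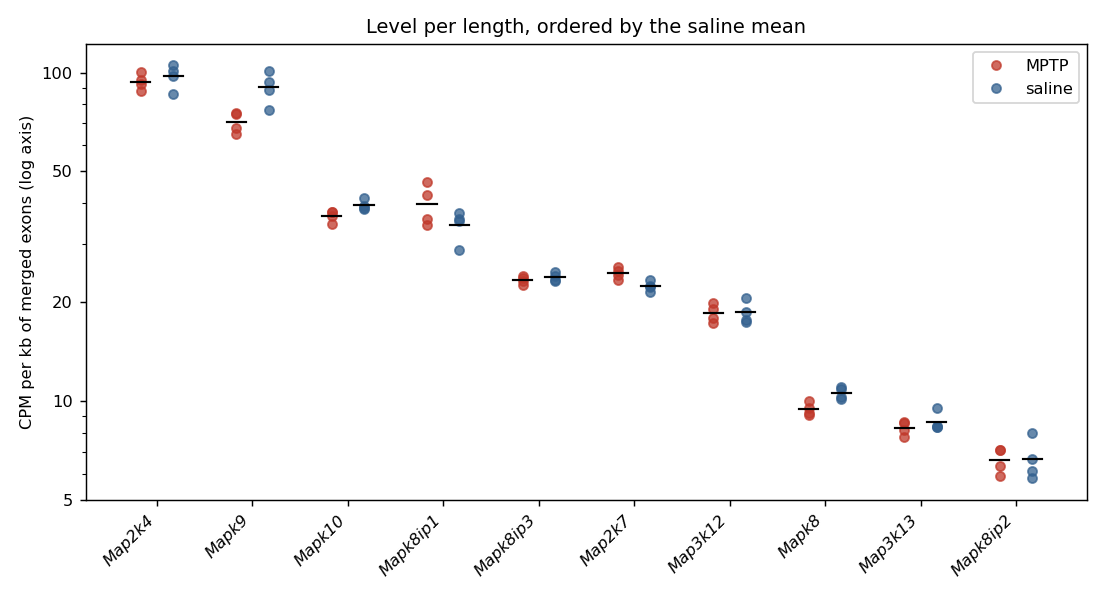
CPM per kilobase of merged exons on a log axis for each gene, ordered by the saline mean, with 1 point per library (MPTP red on the left, saline blue on the right) and black bars at the means. Map2k4 and Mapk9 lie highest, at saline means of 97.7 and 90.1, and Mapk8ip2 lowest at 6.65.

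Within the JNK tier, again per kilobase, Mapk9 made up 60.5 ± 1.202% of the sum in MPTP, against 64.1 ± 2.33% in saline. Mapk8 made up 8.10 ± 0.599% in MPTP, against 7.59 ± 0.769% in saline. Both shares overlapped between the groups. The share of Mapk10 was 32.0%, 31.7%, 30.8% and 30.9% in MPTP, against 27.4%, 27.1%, 30.5% and 28.1% in saline. It was higher in every MPTP library, with saline 3 close below, although the level of Mapk10 itself was lower in every MPTP library. A share also moves with the levels of Mapk9 and Mapk8. The sum of the 3 genes per kilobase was 114, 109, 122 and 122 in MPTP, against 143, 154, 127 and 137 in saline, with no overlap. These sums rest on values already given gene by gene and were not tested. Map3k12 made up 69.0 ± 0.452% of the DLK and LZK sum in MPTP, against 68.2 ± 0.732% in saline. Its level may hold reads of Pcbp2. Shares also depend on the length used. With the longest transcript, the saline share of Map3k12 was 78.6%. In the JNK tier the saline shares were then 61.3% for Mapk9, 28.8% for Mapk10 and 9.94% for Mapk8.

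Of 16 MAP kinase kinase kinases and TAO kinases compared per kilobase, Map3k12 ranked second in saline. It averaged 18.5 in MPTP and 18.6 in saline, below Taok1 (18.8 in MPTP, 22.8 in saline) and above the mixed lineage kinase genes Map3k9 (12.3 in MPTP, 13.1 in saline) and Map3k10 (13.1 in MPTP, 11.1 in saline). Map3k13 ranked seventh. With the length of the longest transcript, also chosen after seeing the data, Map3k12 ranked first (32.1 in MPTP, 32.3 in saline) and Map3k13 eighth. The level of Map3k12 may hold reads of Pcbp2, whose exons overlap it. Of the 14 others 0 passed the test in either direction, with a median log2 fold change of 0.02. The smallest unadjusted p values belonged to Taok1 (-0.27, adjusted p = 0.415, edgeR), Map3k10 (0.24, adjusted p = 0.502) and Map3k3 (0.33, adjusted p = 0.665). Like the JNK genes, Taok1 was lower in every MPTP library (213 to 257 CPM) than in any saline library (259 to 308 CPM). This held for 2.14% of all tested genes. With adjustment for the non-neuronal score Map3k10 was at 0.15 and Map3k3 at 0.16.

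Downstream of JNK some genes passed. Of 18 JNK targets or genes known to be induced downstream of DLK, 5 rose and 0 fell, with a median log2 fold change of 0.12 (0.106% of all tested genes passed). Jun, the target that gives JNK its name, had 39.0, 43.9, 43.9 and 44.3 CPM in MPTP, against 14.4, 18.7, 16.4 and 16.3 CPM in saline. The groups lay far apart, saline 3 included (log2 fold change 1.38, SE 0.11, adjusted p = 3.0e-06, edgeR). Atf3, a stress-induced partner of c-Jun, had 8.04, 6.53, 7.37 and 7.58 CPM in MPTP and at most 0.171 CPM in a saline library. The other 3 that rose were Sprr1a, a gene of regenerating axons (mean 5.95 CPM in MPTP, 0.0910 CPM in saline), the membrane peptidase gene Ecel1 (log2 fold change 3.09) and the pro-apoptotic BH3-only gene Hrk (1.29). These 5 belong to lists chosen with earlier results of these data known. Jund (0.82, adjusted p = 0.0552, edgeR), Bcl2l11 (0.42, adjusted p = 0.416) and the microtubule protein gene Map1b (-0.30, adjusted p = 0.415) did not pass. Jund was higher in every MPTP library than in any saline library (2.04% of all tested genes were). Map1b was lower in every MPTP library than in any saline library (2.14% of all tested genes were). Without saline 3, where 0.853% of all tested genes were called higher and 0.983% lower, Jund also rose and Map1b fell, which made 6 higher and 1 lower. Jund passed in 4 of 16 alternatives, the others being DESeq2 (adjusted p = 0.00015) and edgeR without MPTP 1 (adjusted p = 0.0300) or MPTP 3 (adjusted p = 0.0370).

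**Figure D5:**
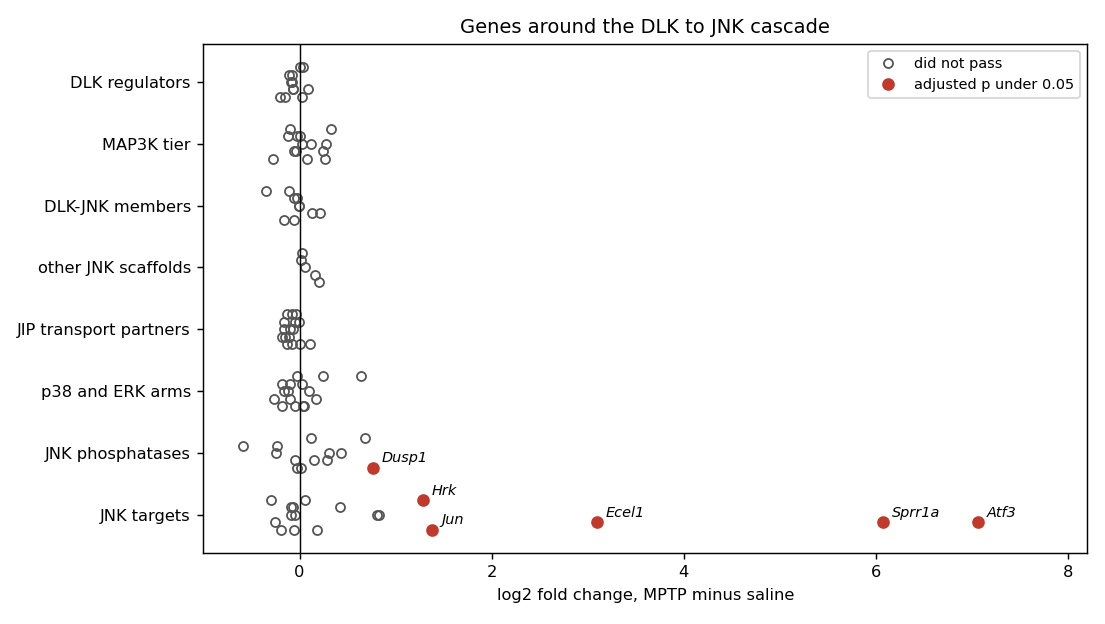
Log2 fold change (MPTP minus saline) of each tested gene in 8 lists around the cascade, with genes past an adjusted p of 0.05 filled and named. The 10 cascade genes lie between -0.35 and 0.21, whereas Jun (1.38), Hrk (1.29), Ecel1 (3.09), Sprr1a (6.07) and Atf3 (7.06) lie far to the right.

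The lists of phosphatases, of genes acting on DLK protein and of other scaffolds gave 1 call. Dual-specificity phosphatases switch off MAP kinases, and not JNK alone. Of 13 such genes 1 was called higher and 0 lower, where 0.0750% of all tested genes were called higher and 0.0313% lower. It was Dusp1 (39.4 ± 4.06 CPM in MPTP, against 23.3 ± 5.37 CPM in saline, adjusted p = 0.0450, edgeR). The median log2 fold change of the 13 genes was 0.12. Dusp8 (0.29, adjusted p = 0.415), Dusp16 (0.43, adjusted p = 0.456) and Dusp6 (0.68, adjusted p = 0.553) did not pass. Without saline 3, 3 phosphatase genes rose, Dusp1, Dusp6 (adjusted p = 0.0463, edgeR) and Dusp16 (adjusted p = 0.0435), where 0.853% of all tested genes were called higher. With all libraries and adjustment for the non-neuronal score, Dusp6 was at 0.38 (adjusted p = 0.903) and Dusp16 at 0.24 (adjusted p = 0.863). The call on Dusp1 ended in 6 of 16 alternatives, among them without MPTP 1, 2 or 4 or saline 1 or 2 (highest adjusted p = 0.302, edgeR, without MPTP 4). The call on Hrk ended in 7, among them without MPTP 1, 3 or 4 or saline 1 or 4 (highest adjusted p = 0.167, edgeR, without MPTP 4). Both stayed above 0 in all 16. Of 12 genes known to act on DLK protein, 0 passed and the median was -0.07. Among them the deubiquitinase gene Usp9x was at -0.20 (adjusted p = 0.545), the chaperone gene Cdc37 -0.15 (adjusted p = 0.660) and Hsp90ab1 -0.11 (adjusted p = 0.798). With that adjustment Cdc37 was at -0.07 and Hsp90ab1 turned to 0.035. Of 5 other JNK scaffold genes 0 passed. All 5 had a log2 fold change above 0, where 50.1% of all tested genes did, with a median of 0.06. Arrb2 (log2 fold change 0.20, adjusted p = 0.570), a scaffold of JNK3, had the smallest unadjusted p. Sh3rf1 (0.06) and Flna (0.16, or -0.022 with that adjustment) came next, and Spag9 (0.023) and Sh3rf3 (0.016) were near 0.

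The genes whose levels followed the cascade genes most closely over the 8 libraries were picked from 12090 genes by Pearson's r of log2 CPM, as a description. For Map3k12 they were Hax1 (r = 0.970), Atp5sl (r = 0.969) and Ptplad1 (r = 0.962). For Map3k13 they were Pde11a (r = 0.960), Fam49b (r = 0.958) and Ebna1bp2 (r = 0.942), and for Mapk10 they were Skiv2l2 (r = 0.965), Taf4b (r = 0.954) and Arhgap5 (r = 0.950). With so many genes and 8 libraries, which share the group and the saline 3 difference, such values are reached easily.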

How the data were processed

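TRAP RNA was amplified from nanogram inputs and sequenced as single-end reads, per the labels' protocols. The authors deposited raw counts per gene for 8 libraries. TopHat2 2.0.8 and the mm10 build were used, per the submitters' processing notes; the sources used here name no counting tool, annotation or strand setting. By Entrez identifier, 27 symbols mangled to dates were repaired, and 90 genes had no symbol (0.0505% to 0.056% of counts).

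Counts were analysed with edgeR 4.0.16 in R 4.3.3: TMM scaling, filterByExpr by group (15999 genes kept), quasi-likelihood F-test (robust, group term alone), Benjamini-Hochberg adjustment over all genes, threshold 0.05. Log2 fold changes are MPTP minus saline, the SE is the size of the log2 fold change over the square root of F, and 95% intervals use the test's degrees of freedom. CPM are counts scaled to the TMM-adjusted library size, log2 CPM used a prior count of 2, and merged exon lengths come from GENCODE vM21 (GRCm38, the assembly of mm10). Alternatives included DESeq2 1.42.0 and limma 3.58.1. Zak in the table was matched to Map3k20 by synonym.

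The members and lists were chosen with earlier results of these data known. The rule for named genes takes all 10 members, called genes and up to 3 others with the smallest p in each list, and the 3 genes most like Map3k12, Map3k13 and Mapk10 among genes averaging 1 or more in log2 CPM. Genes that share exons with a member, and the dopaminergic marker Th, were named after their values were seen. Whether replicates were separate animals is not in the labels; the p-values reflect the spread among these libraries, which may be technical. Counts of every within-group pair of libraries differed beyond sampling noise. Tested on simulated data, the fit missed many of the smaller changes and found the larger ones more often, and the share of false calls lay above the threshold.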

Additional observations from a re-analysis of the deposited data

Results flagged for a closer look

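Of 78 groups of 4 libraries examined, 6 held a library far from the other 3, where chance gives about 1 in 20. Among the cascade genes this was Map3k13 in saline 1 (82.9 CPM, the other saline libraries at 72.8 to 73.4). Among the downstream genes it was Jun in MPTP 1 (39.0 CPM, the others at 43.9 to 44.3), Sprr1a in MPTP 4 (8.97 CPM, the others at 4.82 to 5.03), Atf3 in saline 4 (0.171 CPM, the others at 0.0150 to 0.0306) and Dusp16 in MPTP 3 (17.03 CPM, the others at 20.0 to 20.5). The dopaminergic marker score was low in saline 3 (7.45, the other saline libraries at 8.01 to 8.05).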

How the results depend on the processing

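Over 16 alternatives per gene, Map3k13, Map2k7, Mapk8, Mapk10, Mapk8ip1 and Mapk8ip3 kept their sign and passed in none. Small values turned sign: Map3k12 was 0.0041 with upper quartile scaling, Mapk8ip2 0.0015, and after adjusting for the non-neuronal score Map3k12 was 0.011, Map2k4 0.035, Hsp90ab1 0.035 and Flna -0.022. Mapk8ip2 was 0.011 with limma voom. Leaving out each library in turn, Map3k12 ranged from -0.041 to 0.049, Mapk8ip2 from -0.064 to 0.091 and Mapk9 from -0.42 to -0.29, with 0 to 1 members called. The adjusted p of Mapk9 lay between 0.0216 (without saline 3) and 0.791 (without saline 1). It was 0.0569 with DESeq2. When 1 library was left out, the higher genes numbered 8 to 138 and the lower genes 0 to 159, both highest without saline 3. Of 12 higher and 5 lower genes with all libraries, DESeq2 called 25 and 28, a mean CPM of at least 5 left 7 higher and the covariate left 3 lower. The non-neuronal score differed by 0.31 on the log2 scale (exact two-sided permutation p = 0.229), by 0.20 to 0.52 when 1 library was left out (p = 0.0286, the smallest possible, without saline 3), and the dopaminergic score by -0.15 (exact p = 0.400), by -0.29 without saline 3 (exact p = 0.0571) and by -0.092 without saline 2 (exact p = 0.629). Replicate numbers did not pair the libraries (correlations of deviations from -0.12 to 0.04, and 1 of 8 libraries correlated best with its own number); with the replicate block, 10 genes were higher and 4 lower and Mapk9 was at -0.35 (adjusted p = 0.661). The cause of these changes was not tested.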

Other observations

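The sister arms of the cascade and the transport partners of JIP proteins held no called gene, where 0.106% of all tested genes were called. Of 16 tested genes of the p38 and ERK arms 0 passed, with a median log2 fold change of -0.03. Mapk7, the gene of ERK5, had the smallest p of them and stood at 16.5, 14.2, 11.4 and 18.2 CPM in MPTP, against 7.63, 7.49, 11.9 and 11.6 CPM in saline. MPTP 3 lay below both saline 3 and saline 4, so the groups overlapped (log2 fold change 0.64, SE 0.19, adjusted p = 0.392, edgeR). Araf (-0.18) and Map2k6 (-0.26, or -0.10 with adjustment for the non-neuronal score) followed. Of 16 transport partners of the JIPs 0 passed, 14 had a log2 fold change below 0 and the median was -0.09. App (0.10) and Lrp8 (0.0028) were the 2 above 0, where 50.1% of all tested genes were above 0. The small GTPase gene Arf6 (-0.18, adjusted p = 0.584), the kinesin light chain gene Klc2 (-0.16, adjusted p = 0.618) and the dynein chain gene Dync1li1 (-0.16, adjusted p = 0.667) had the smallest p. With that adjustment Dync1li1 was at -0.027.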
